A study of Homo sapiens with 9 samples.

Results

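The 9 genes described here encode parts of the MHC class I antigen presentation pathway: the heavy chains HLA-B, HLA-C, HLA-E and HLA-F, the light chain B2M, the peptide transporter subunits TAP1 and TAP2, the loading factor TAPBP (tapasin) and the transcriptional activator NLRC5. They were chosen by gene symbol, and all 9 were found among the 60623 genes of the deposited tables. All 9 also passed the filter on low counts that left 16213 genes for testing. RNA was sequenced from 22Rv1 cells, a human prostate carcinoma epithelial line, in which PDCD4 had been depleted with a short hairpin RNA. The S239D group carried a rescue PDCD4 with aspartate in place of the phosphorylated serine, which mimics a phosphate, the S239A group one with alanine there, which cannot be phosphorylated, and the WT group the wild-type protein. Each group had 3 libraries, 9 in all. Titles of the S239D libraries read S23D, and the genotype label was followed. The knockdown is shared by all groups, the labels name no drug treatment, and cells without the knockdown or without a rescue were not analysed here. The series concerns PDCD4 as a substrate of the kinase PLK1 and its link to enzalutamide resistance. Nothing in the labels ties the 3 libraries to separate cultures, so the spread behind each p-value may be technical.

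Class I molecules show peptides from inside the cell to CD8 T cells. Proteasomes cut proteins into peptides, TAP1 and TAP2 pump these into the endoplasmic reticulum, and tapasin with calreticulin (CALR) and PDIA3 loads them onto a heavy chain paired with B2M. NLRC5 does not bind DNA itself but is recruited to class I promoters by factors such as the RFX complex, CREB-family proteins and NF-Y, and interferon signalling raises most genes of the pathway. Low class I expression is a known feature of many prostate carcinomas.

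The promoters of these genes share elements that such factors are known to read, and 5 of them are shown because they cover genes that fell (HLA-B, HLA-C, HLA-F), one that did not pass the test (B2M) and one that rose (TAPBP) in S239D. RefSeq (GRCh38.p14) gave 8 windows for 7 of the 9 genes (TAP1 has 2), and the 250 bases before the annotated start are printed 5′ to 3′ in the direction of the gene. HLA-B lies at chr6:31357180-31357429 (minus strand), HLA-C at chr6:31272093-31272342 (minus), HLA-F at chr6:29723184-29723433 (plus), B2M at chr15:44711267-44711516 (plus) and TAPBP at chr6:33314079-33314328 (minus). Capitals mark matches to 5 motifs searched on both strands: the interferon-stimulated response element, here 2 GAAA units with 2 bases between them, a shorter form GAANNGAAA, the cAMP response element core TGACG, the inverted CCAAT box CTGATTGG read by NF-Y, and the NF-kB element of class I promoters, which is the capital run nearest the 5′ end of the HLA-B window (-177 to -167).
HLA-B: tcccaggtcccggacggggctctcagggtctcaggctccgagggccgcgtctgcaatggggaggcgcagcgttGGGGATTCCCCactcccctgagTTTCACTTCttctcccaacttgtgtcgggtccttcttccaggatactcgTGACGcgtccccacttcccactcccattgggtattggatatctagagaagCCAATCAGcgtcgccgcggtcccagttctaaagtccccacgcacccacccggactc
HLA-C: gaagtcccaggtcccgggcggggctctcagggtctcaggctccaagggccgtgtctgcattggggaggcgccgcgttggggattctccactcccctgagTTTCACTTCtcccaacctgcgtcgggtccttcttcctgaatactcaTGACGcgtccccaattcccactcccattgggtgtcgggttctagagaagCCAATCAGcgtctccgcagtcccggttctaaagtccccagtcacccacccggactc
HLA-F: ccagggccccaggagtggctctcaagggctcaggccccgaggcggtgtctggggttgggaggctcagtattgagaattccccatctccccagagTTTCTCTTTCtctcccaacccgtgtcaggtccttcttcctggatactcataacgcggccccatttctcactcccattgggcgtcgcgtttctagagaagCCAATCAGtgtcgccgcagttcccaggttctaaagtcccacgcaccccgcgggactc
B2M: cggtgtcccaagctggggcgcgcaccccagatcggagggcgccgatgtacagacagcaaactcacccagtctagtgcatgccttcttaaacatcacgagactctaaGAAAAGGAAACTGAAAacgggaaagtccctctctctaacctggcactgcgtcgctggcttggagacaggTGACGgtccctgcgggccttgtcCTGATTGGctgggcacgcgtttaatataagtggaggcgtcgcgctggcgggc
TAPBP: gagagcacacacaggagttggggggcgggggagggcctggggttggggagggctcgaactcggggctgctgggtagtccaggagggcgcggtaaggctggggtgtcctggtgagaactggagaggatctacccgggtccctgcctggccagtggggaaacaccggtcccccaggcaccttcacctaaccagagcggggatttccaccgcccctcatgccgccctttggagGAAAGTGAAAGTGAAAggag

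The NF-Y box stood in 4 of the 8 windows, those of HLA-B, HLA-C, HLA-F and B2M, against 3.81% of all 35116 windows of the same length. HLA-B and HLA-C carried it at the same place, -56 to -49 from the start. The full interferon element was found in 5 of the 8 windows (HLA-F, B2M, the first of TAP1, TAP2 and TAPBP), against 3.02% of all windows. HLA-B, HLA-C and TAP2 held the shorter form, which 6.56% of all windows hold and which was chosen from the HLA-B sequence. In TAP2 it overlaps the full element in part. The TGACG core was present in 4 of the 8 (HLA-B, HLA-C, B2M and TAP2), against 21.2% of all windows, and the NF-kB element in HLA-B, against 0.0313%. These are matches of letters in the reference genome, which is not the cell line's own haplotype, and a window without a match says only that these letters are not there.

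**Figure D1:**
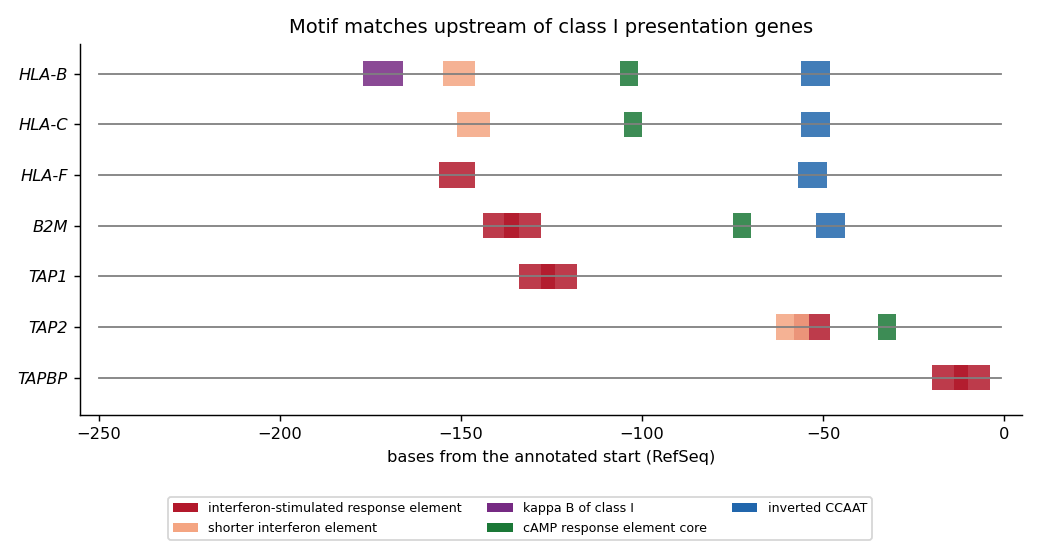
Positions of the motif matches in the 250 bases before the annotated start of the 7 genes with a RefSeq window, with bases from the start on the x axis and 1 gene per row (for TAP1, the first of its 2 windows). The NF-Y box (inverted CCAAT) stands at -57 to -45 in HLA-B, HLA-C, HLA-F and B2M, and the 2 overlapping interferon elements of TAPBP stand at -20 to -5.

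Libraries held 5696841 to 9688554 counts, so a floor of 3 counts was 0.31 to 0.527 CPM (counts scaled to library size), covering counting error only. PDCD4, where endogenous and rescue transcripts could not be told apart, was at 16.8, 17.1 and 17.0 CPM in S239D, 19.0, 23.1 and 25.0 CPM in S239A, and 24.1, 24.9 and 20.4 CPM in WT (S239D against WT -0.44, edgeR adjusted p = 0.0164). That call was absent without WT replicate 1 or 2 (edgeR adjusted p = 0.0657 and 0.0627), and limma on log2(TPM + 1) did not make it (-0.29, adjusted p = 0.41). S239D libraries lay at 55.2 to 58.7 on the first principal component (56.8% of the variance), and the other 6 at -33.5 to -24.7. S239D replicate 2 and S239A replicate 2 stood apart on the second component (10.9%), at -27.3 and -35.8. The mitochondrial share of counts was 4.72%, 6.01% and 4.9% in S239D, 3.33%, 5.38% and 2.99% in S239A, and 2.99%, 2.83% and 3.04% in WT, so all S239D libraries lay above all WT libraries. Of 10 leukocyte markers, 4 (CD3E, CD2, MS4A1 and NKG7) had no count in any library, and the list's summed level was 4.95 to 6.83 TPM (transcript level scaled within a library) in S239D, 7.06 to 16.4 in S239A and 8.91 to 11.1 in WT. The 10 luminal prostate markers summed to 2727 to 2786 TPM in S239D, 3735 to 4223 TPM in S239A and 3614 to 3703 TPM in WT, the 6 fibroblast markers to 26.9 to 37.0, 47.0 to 61.1 and 46.5 to 59.0 TPM in the same groups, and the 4 endothelial markers to 0.15 TPM at most. The part of these differences in the results was not tested, and in bulk RNA fewer cells of a type cannot be told apart from less RNA per cell.

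Heavy chain transcripts were lower in S239D cells than in either other group, while NLRC5 and TAPBP were higher and B2M did not pass the test. Against WT, 7 of the 9 genes passed the test in S239D, 4 lower and 3 higher, where 41.4% of all tested genes passed, 21.7% lower and 19.7% higher. The libraries of the 2 groups did not overlap for 8 of the 9 genes, 5 lower and 3 higher, against 27.4% and 26.5% of all tested genes. Tests were edgeR quasi-likelihood F tests with Benjamini-Hochberg adjustment over all 16213 genes, called at 0.05, and log2 fold changes are given with a standard error (SE).

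**Figure D2:**
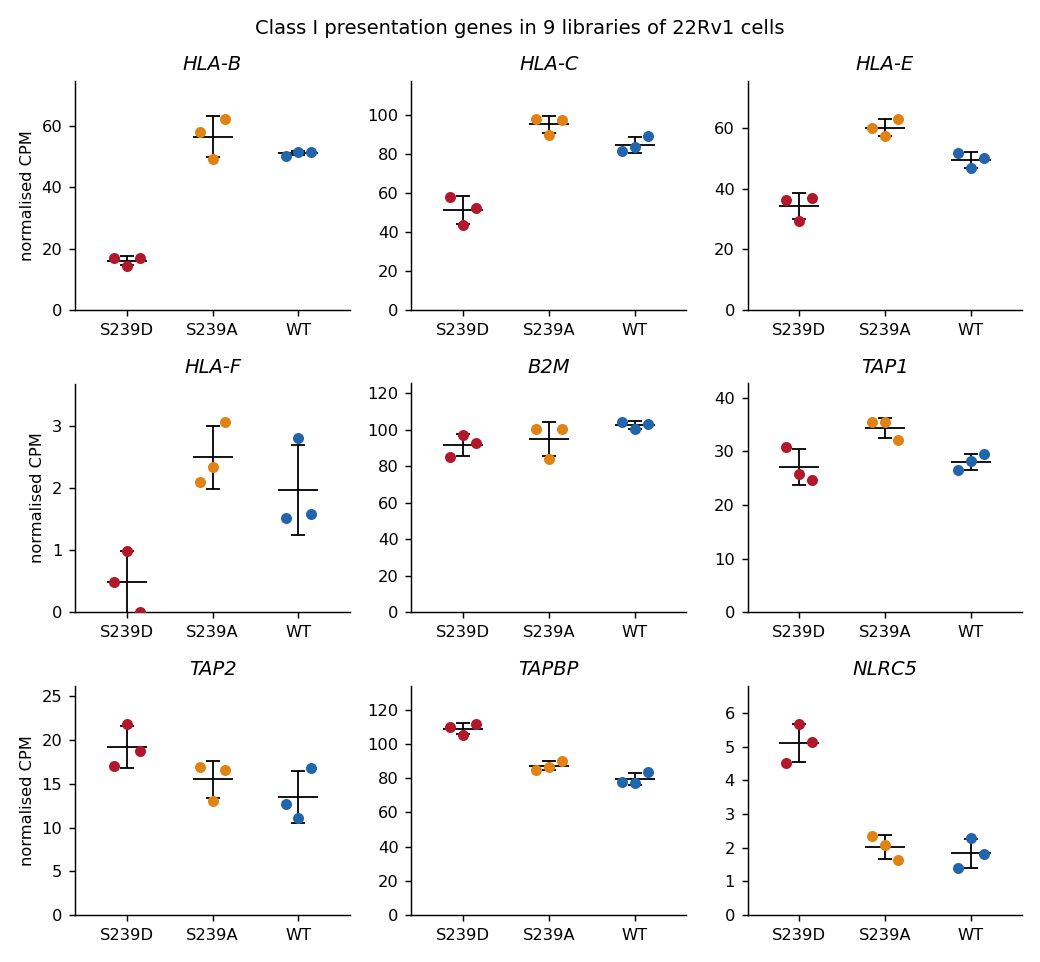
Normalised CPM of the 9 genes in each library (points), with the mean and SD of each group (bar and whiskers, n = 3), S239D left, S239A in the middle and WT right. HLA-B, HLA-C, HLA-E and HLA-F lie lowest in S239D in all 3 libraries, and NLRC5 and TAPBP lie highest there.

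HLA-B, a classical heavy chain that presents peptides to CD8 T cells (ENSG00000234745, chromosome 6, 31269491 to 31357188), had the largest fall among the well-counted members. It stood at 17.0, 14.3 and 16.9 CPM in S239D, 58.1, 49.3 and 62.3 CPM in S239A, and 50.4, 51.4 and 51.6 CPM in WT. Every S239D library was below every other library, and the S239A and WT libraries overlapped. S239D was 3.17-fold lower than WT (log2 fold change -1.67, SE 0.12, edgeR adjusted p = 2.13e-07) and 3.52-fold lower than S239A (-1.81, SE 0.12, edgeR adjusted p = 5.48e-08).

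HLA-C (ENSG00000204525, chromosome 6, 31268749 to 31272130), a classical chain that is also a ligand of killer-cell immunoglobulin-like receptors, fell less. It stood at 57.9, 43.9 and 52.6 CPM in S239D, 98.0, 90.1 and 97.8 CPM in S239A, and 81.6, 83.6 and 89.3 CPM in WT. The 3 groups did not overlap, with S239D lowest and S239A highest. S239D was 1.65-fold lower than WT (-0.72, SE 0.10, edgeR adjusted p = 9.71e-05) and 1.85-fold lower than S239A (-0.89, SE 0.10, edgeR adjusted p = 1.29e-05).

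HLA-E (ENSG00000204592, chromosome 6, 30489509 to 30494194) presents leader peptides of other class I chains to the NK receptor NKG2A. Its values were 36.4, 29.5 and 37.1 CPM in S239D, 60.1, 57.4 and 62.9 CPM in S239A, and 51.7, 46.7 and 49.98 CPM in WT, again with no overlap between groups and the same order. S239D was 1.44-fold lower than WT (-0.53, SE 0.11, edgeR adjusted p = 0.00143) and 1.75-fold lower than S239A (-0.81, SE 0.11, edgeR adjusted p = 3.74e-05). Limma on log2(TPM + 1) did not call it against WT (-0.33, adjusted p = 0.0652).

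HLA-F (ENSG00000204642, chromosome 6, 29722775 to 29738528), a nonclassical chain that can reach the surface without peptide, was near the limit of detection. It had 4, 8 and 0 counts in S239D, 17, 19 and 30 counts in S239A, and 14, 16 and 14 counts in WT. The count of 0 allows up to 0.317 CPM. HLA-F passed the filter on low counts only through the S239A and WT libraries. It was called lower in S239D than in WT (-1.98, SE 0.63, edgeR adjusted p = 0.0207) and than in S239A (-2.38, SE 0.60, edgeR adjusted p = 0.00525). It no longer passed against WT without S239D replicate 3 (-1.35, edgeR adjusted p = 0.0602) or WT replicate 2 (-1.69, edgeR adjusted p = 0.0803), and both calls were lost with limma on log2(TPM + 1).

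Reads can be shared among these HLA genes. The table's HLA-B gene model runs over most of HLA-C on the same strand from 31269491 to 31272130, and 17.8% of the 50-base words in GENCODE 29 transcripts of HLA-B, 5.7% in HLA-C, 4.87% in HLA-E and 21.6% in HLA-F also occur in transcripts of another gene. With another of the 9 genes the shared part was 2.57%, 3.79%, 1.19% and 0.521%, and with 100-base words it was 0%. HLA-F also overlaps HLA-F-AS1 on the opposite strand, and the sources used here do not give the libraries' strandedness. When the counts of the 4 heavy chain genes were summed before the fit, the sum was 112, 88.7 and 107 CPM in S239D, 218, 199 and 226 CPM in S239A, and 185, 185 and 192 CPM in WT. The sum in S239D had a log2 fold change against WT of -0.87 (SE 0.094, edgeR adjusted p = 8.13e-06). Against S239A it was -1.07 (SE 0.094, edgeR adjusted p = 1e-06). The summed genes were thus also called lower, whichever of the 4 a read shared among them was given to. Reads shared with genes outside the 4 are not covered by the sum. Of the 100-base words, 12.9% in HLA-B, 0.126% in HLA-C, 0.491% in HLA-E and 15.3% in HLA-F occur in another gene.

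HLA-B also made up a smaller share of the heavy chain pool in S239D. It supplied 15.7 ± 0.47% of the counts of the 4 heavy chain genes in S239D, 26.3 ± 1.4% in S239A and 27.3 ± 0.55% in WT (SD, n = 3). The 3 S239D libraries, at 15.2% to 16.1%, lay below all others, which began at 24.8%. With 3 libraries a group, an exact permutation test of this share could not go below p = 0.1, so none is given.

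B2M, the light chain that all class I heavy chains need (ENSG00000166710, chromosome 15, 44711487 to 44718877), did not pass the test in any comparison. It was at 85.2, 97.1 and 92.6 CPM in S239D, 100, 84.0 and 100.3 CPM in S239A, and 104, 100.3 and 103 CPM in WT. The S239D libraries lay below the WT libraries and overlapped the S239A ones. The difference from WT was -0.16 (95% interval -0.36 to 0.033, edgeR adjusted p = 0.171) and that from S239A was -0.050 (95% interval -0.25 to 0.15, edgeR adjusted p = 0.689). Without both replicate 2 libraries of the variants, B2M was called lower in S239D than in WT (-0.20, edgeR adjusted p = 0.00911) and than in S239A (-0.17, edgeR adjusted p = 0.0441), where 51.6% and 49.9% of all tested genes were called.

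Per unit of transcript length, B2M was the most abundant of the 9 genes in every library and NLRC5 or HLA-F the least. Median TPM over the 9 libraries was 340 for B2M, 88.2 for HLA-C, 55.4 for HLA-B, 44.1 for TAPBP, 30.1 for HLA-E, 14.9 for TAP1, 4.77 for TAP2, 3.57 for HLA-F and 1.29 for NLRC5. Between neighbours in this order, library ranges overlapped for HLA-C and HLA-B, HLA-B and TAPBP, TAPBP and HLA-E, TAP2 and HLA-F, and HLA-F and NLRC5. Some genes further apart in it, such as HLA-B and HLA-E, overlapped as well. The ratio of B2M to the summed heavy chains was 2.83, 3.78 and 3.23 TPM per TPM in S239D, 1.56, 1.52 and 1.61 in S239A, and 1.62, 2.03 and 1.67 in WT. All S239D ratios were above all others.

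**Figure D3:**
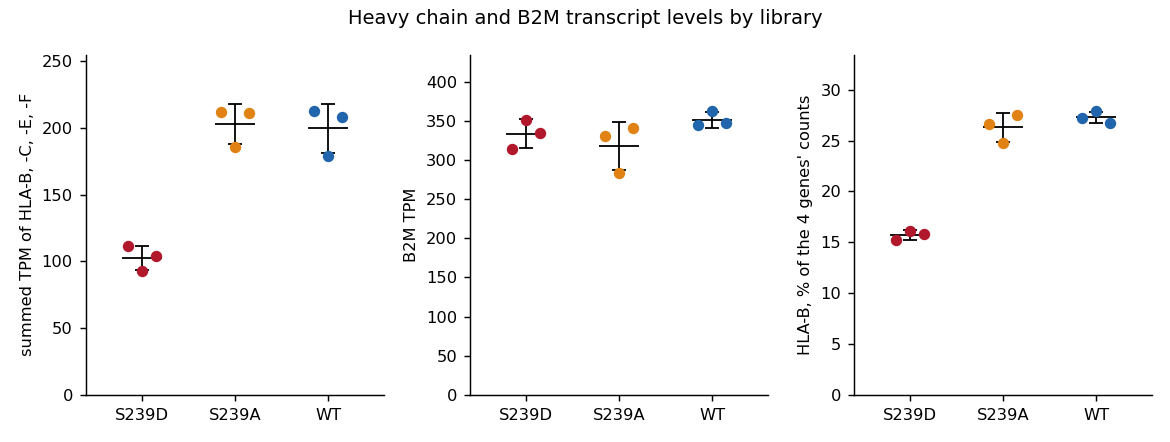
Summed TPM of the 4 heavy chain genes, TPM of B2M, and the share of the 4 genes' counts that came from HLA-B, in each library (points) with the mean and SD of each group (n = 3). The summed heavy chains were 93.1 to 111 TPM in S239D and 179 to 212 TPM in the other groups, while B2M was at 314 to 352 TPM in S239D, 283 to 340 TPM in S239A and 344 to 362 TPM in WT.

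TAP1 and TAP2 form the transporter that moves peptides into the endoplasmic reticulum, and they did not move together. TAP1 (ENSG00000168394, chromosome 6, 32845209 to 32853978) was at 30.9, 25.8 and 24.7 CPM in S239D, 35.4, 35.5 and 32.2 CPM in S239A, and 26.4, 28.3 and 29.5 CPM in WT. S239D overlapped WT (-0.051, 95% interval -0.30 to 0.20, edgeR adjusted p = 0.754) and lay below S239A (-0.34, SE 0.11, edgeR adjusted p = 0.0249). That call against S239A was lost with DESeq2 (adjusted p = 0.0544), in a fit of the groups compared alone (edgeR adjusted p = 0.051), and without S239D replicate 2 or 3 or S239A replicate 1 (edgeR adjusted p = 0.055, 0.116 and 0.0786). Limma on log2(TPM + 1) gave an adjusted p of 0.202.

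TAP2 (ENSG00000204267, chromosome 6, 32821833 to 32838770) was at 17.0, 21.8 and 18.8 CPM in S239D, 16.9, 13.0 and 16.6 CPM in S239A, and 12.7, 11.1 and 16.8 CPM in WT. All S239D libraries lay above all others, by a small margin. TAP2 was called higher in S239D than in WT (0.49, SE 0.17, edgeR adjusted p = 0.0307) and did not pass against S239A (0.31, 95% interval -0.049 to 0.66, edgeR adjusted p = 0.151). Its counts were split with a readthrough gene on the same strand (ENSG00000250264), and 31.3% of its 50-base words occur in another gene. Summed with that gene it stood at 20.8, 24.9 and 23.6 CPM in S239D, 25.6, 16.1 and 21.6 CPM in S239A, and 15.7, 15.1 and 19.6 CPM in WT, so S239D then overlapped S239A. The sum was called against WT (0.45, SE 0.17, edgeR adjusted p = 0.041) and not against S239A (0.13, SE 0.16, edgeR adjusted p = 0.536). The TAP2 call was lost without S239D replicate 2 or 3 or without WT replicate 1 or 2 (edgeR adjusted p = 0.0954, 0.0616, 0.112 and 0.122) and limma on log2(TPM + 1) did not make it (adjusted p = 0.157).

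TAPBP (ENSG00000231925, chromosome 6, 33299694 to 33314387), which bridges the transporter to heavy chains awaiting peptide, was higher in S239D. It was at 110.2, 105 and 112 CPM in S239D, 85.1, 86.8 and 90.2 CPM in S239A, and 77.9, 77.3 and 83.9 CPM in WT, with no overlap between groups. S239D was 1.37-fold higher than WT (0.45, SE 0.081, edgeR adjusted p = 0.000528) and 1.25-fold higher than S239A (0.32, SE 0.080, edgeR adjusted p = 0.00512). The call against S239A was lost with limma on log2(TPM + 1) (adjusted p = 0.0623).

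NLRC5 (ENSG00000140853, chromosome 16, 56989485 to 57083531), the activator of class I genes, went in the opposite direction to the heavy chains. It had 37, 46 and 49 counts in S239D, 19, 17 and 16 counts in S239A, and 13, 13 and 16 counts in WT, or 4.53 to 5.67, 1.64 to 2.35 and 1.41 to 2.28 CPM. All S239D libraries were above all others, and S239A and WT overlapped. S239D was 2.84-fold higher than WT (1.51, SE 0.28, edgeR adjusted p = 0.000769) and 2.53-fold higher than S239A (1.34, SE 0.27, edgeR adjusted p = 0.00126). None of its 50-base words occurs in another gene. On the TPM scale the groups overlapped, at 1.09, 3.53 and 2.96 TPM in S239D, 2.07, 0.67 and 0.46 TPM in S239A, and 1.32, 1.04 and 1.29 TPM in WT, and limma on log2(TPM + 1) made neither call (adjusted p = 0.254 against WT, 0.139 against S239A).

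**Figure D4:**
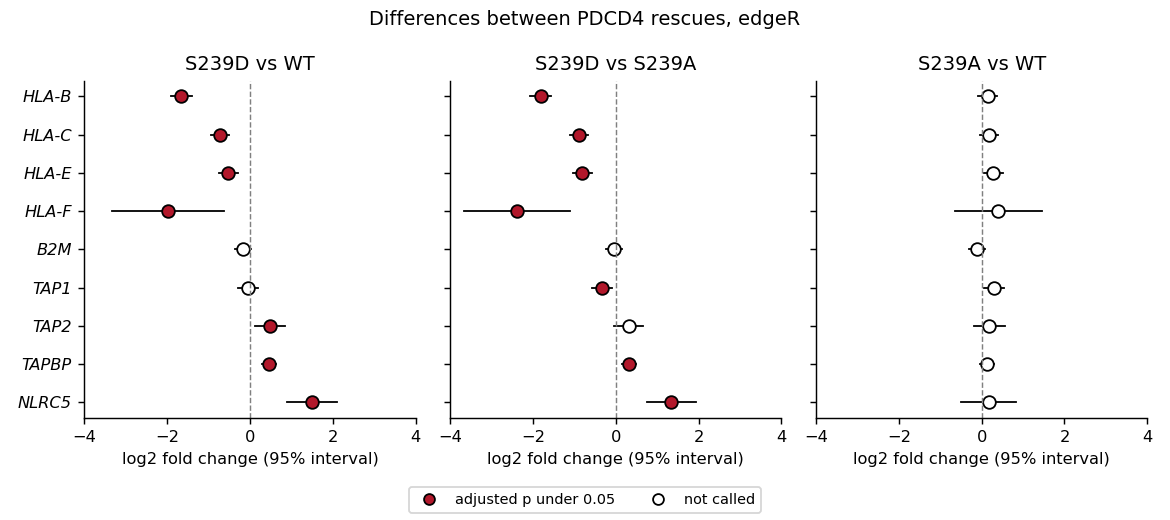
Log2 fold changes of the 9 genes (x axis, with 95% intervals) in each comparison, edgeR with all 9 libraries in 1 fit, where filled points passed at an adjusted p under 0.05. The 4 heavy chains lie left of 0 and NLRC5 and TAPBP right of 0 in both S239D comparisons, and no point is filled for S239A against WT.

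Against S239A, 7 of the 9 genes passed in S239D, 5 lower and 2 higher, where 43.6% of all tested genes passed, 22.7% lower and 20.9% higher. TAP1 joined the 4 heavy chains among the lower genes, and TAP2 was not among the higher ones. Libraries did not overlap for 8 genes, 5 lower and 3 higher, beside 25.6% and 24.2% of all tested genes. This comparison shares its S239D libraries with that against WT, so the values are set side by side and are not independent.

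Between S239A and WT, edgeR called 0 of the 9 genes, where 1 of 16213 genes (0.00617%) passed. DESeq2 and limma on log2(TPM + 1) called 0 as well, where 0.230% and 0.0115% of all genes they tested were called. An unadjusted p under 0.05 was reached by 2 of the 9, HLA-E (0.28, edgeR adjusted p = 0.4) and TAP1 (0.29, edgeR adjusted p = 0.434), against 9.76% of all tested genes. HLA-C, HLA-E, TAP1 and TAPBP had all S239A libraries above all WT libraries, 4 of 9 against 9.94% of all tested genes, and 0 of 9 had all S239A libraries below, against 9.55%. Their log2 fold changes were 0.17, 0.28, 0.29 and 0.13, and none passed. HLA-E was called when both replicate 2 libraries of the variants were left out (0.31, edgeR adjusted p = 0.0241), where 5.29% of all tested genes were called. The 95% intervals of HLA-B (-0.084 to 0.38) and NLRC5 (-0.50 to 0.84) include 0.

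The members on chromosome 6 lie in the MHC, where 113 other tested genes overlap the span from 29722775 to 33314387. Against WT, 24 of those were called higher in S239D and 22 lower, beside 19.7% and 21.7% of all tested genes. The median log2 fold change of the 113 was 0.072. The 7 members in the same span had 2 higher and 4 lower, with a median of -0.53. B2M and NLRC5 lie on other chromosomes.

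Genes that work with the members were read from 8 lists, of which 82 genes were tested. In S239D against WT 9 of them were higher and 30 lower, beside 19.7% and 21.7% of all tested genes. Their median log2 fold change was -0.087, where all tested genes had 0.00075. Against S239A, 11 were higher and 27 lower (median -0.20), beside 20.9% and 22.7% of all tested genes. For S239A against WT edgeR called 0, as did limma on log2(TPM + 1). There 10 had an unadjusted edgeR p under 0.05, beside 9.76% of all tested genes. Some of the genes that fell passed the filter on low counts only through the S239A and WT libraries, as stated below.

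Of 13 tested genes that supply and trim peptides, 4 fell and 2 rose in S239D against WT, or 6 of 13 called where 41.4% of all tested genes were. The immunoproteasome subunit genes PSMB8 and PSMB9 lie beside TAP1 and TAP2. PSMB8 had 5, 3 and 3 counts in S239D, 21, 9 and 20 in S239A, and 16, 7 and 16 in WT (-1.89 against WT, edgeR adjusted p = 0.00758, and -2.13 against S239A, edgeR adjusted p = 0.00272). PSMB9 had 7, 8 and 4 counts in S239D, 28, 16 and 50 in S239A, and 25, 6 and 20 in WT (-1.48 against WT, edgeR adjusted p = 0.0306, and -2.24 against S239A, edgeR adjusted p = 0.00169). The PSMB9 call against WT was lost without S239D replicate 1 or 3 or WT replicate 1 or 3 (edgeR adjusted p = 0.052, 0.121, 0.133 and 0.0825). The gene model of PSMB9 covers all of TAP1 on the opposite strand, and the sources used here do not say whether the counting used strand.

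The third immunoproteasome subunit gene, PSMB10, moved the other way, at 8.21 ± 1.4 CPM in S239D, 4.48 ± 1.2 CPM in S239A and 5.76 ± 0.85 CPM in WT (SD, n = 3). It passed against S239A (0.87, edgeR adjusted p = 0.00651) and not against WT (0.53, edgeR adjusted p = 0.0718). The call against S239A was lost with limma on log2(TPM + 1) (adjusted p = 0.0542). The proteasome activator gene PSME1 fell against WT and S239A (-0.77 and -0.83). ERAP1, which trims peptides in the endoplasmic reticulum, fell against WT (-0.50, edgeR adjusted p = 0.0543 when WT replicate 2 was left out). With limma on log2(TPM + 1) the ERAP1 difference was -0.24 and was not called (adjusted p = 0.468). The rises against WT were those of the peptidase genes TPP2 (0.32) and THOP1 (0.31), named after their values were seen. Leaving out S239D replicate 1 or WT replicate 3 ended the THOP1 call (edgeR adjusted p = 0.0724 and 0.0803). Leaving out any of 6 libraries ended that of TPP2 (edgeR adjusted p up to 0.162), as did limma on log2(TPM + 1) (adjusted p = 0.14). The constitutive catalytic subunit genes PSMB5, PSMB6 and PSMB7 did not pass (0.061, 0.033 and -0.058 against WT).

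Of 8 genes for folding and loading, 5 fell and 1 rose against WT in S239D (6 of 8, beside 41.4% of all tested genes). CALR, the chaperone calreticulin of the loading complex, stood at 910.2 ± 41 CPM in S239D, 1608 ± 70 CPM in S239A and 1613 ± 19 CPM in WT (SD, n = 3, -0.83 against WT, edgeR adjusted p = 9.81e-07). Its oxidoreductase partner PDIA3 (-0.81) and the chaperone HSPA5 (-0.74) fell too. TAPBPL, a tapasin relative that edits peptides, rose (0.64, edgeR adjusted p = 0.0162), a call lost with DESeq2 (adjusted p = 0.0571) and without S239D replicate 1 or WT replicate 3 (edgeR adjusted p = 0.055 and 0.0808). Against S239A the 4 values were -0.82, -0.74, -0.66 and 0.92.

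Of 15 genes for transcription factors and silencers that act on class I genes, 5 fell and 1 rose against WT in S239D (6 of 15, beside 41.4% of all tested genes). RFX5, which binds class I promoters and recruits NLRC5, was at 62.6 ± 4.9 CPM in S239D, 87.2 ± 8.3 CPM in S239A and 84.9 ± 3.8 CPM in WT (SD, n = 3, -0.44 against WT, edgeR adjusted p = 0.00249), a call lost with limma on log2(TPM + 1) (adjusted p = 0.161). Its partners RFXAP and RFXANK did not pass (0.28 and -0.077). EZH2, a histone methyltransferase that can silence class I genes, fell (-0.62), as did IRF2 (-0.49), while NFKB1 rose (0.35). IRF2 lost its call with DESeq2 (adjusted p = 0.07) and without WT replicate 2 or 3 or S239D replicate 3. NFKB1 lost its call with DESeq2 (adjusted p = 0.051) and with no filter. Leaving out S239D replicate 1 or 3 or WT replicate 1 or 3 also ended the NFKB1 call. With limma on log2(TPM + 1), neither IRF2 (adjusted p = 0.29) nor NFKB1 (adjusted p = 0.213) was called against WT. Against S239A, RFX5 (-0.48) and EZH2 (-0.37) fell and NFKB1 (0.48) and RELA (0.25) rose. The RELA call was lost without S239A replicate 1 or 3 or S239D replicate 1 or 3. In that comparison limma on log2(TPM + 1) did not call RFX5, NFKB1 or RELA (adjusted p = 0.217, 0.186 and 0.0675).

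Of 14 interferon receptor and signalling genes, 2 fell and 1 rose against WT in S239D (3 of 14, beside 41.4% of all tested genes). The receptor genes IFNAR2 (-0.53, limma on log2(TPM + 1) adjusted p = 0.116) and IFNGR1 (-0.52) fell. The kinase gene JAK1 rose (0.58, lost without S239D replicate 3 or WT replicate 3, edgeR adjusted p = 0.112 and 0.0819). JAK1 was also not called with limma on log2(TPM + 1) (0.19, adjusted p = 0.61). The phosphatase gene PTPN2 rose against S239A (0.66).

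Of 27 interferon-induced genes, 15 were tested. Against WT, 9 fell and 3 rose in S239D (12 of 15, beside 41.4% of all tested genes), with a median of -0.95. Among those that fell, IFI6, GBP2, UBE2L6 and IFITM1 averaged 0.16, 0.30, 0.37 and 0.88 CPM in S239D. They passed the filter on low counts only through the S239A and WT libraries, so the count of falls and the median partly reflect the filter. With a filter of at least 1 CPM in 6 libraries, IFI6 and GBP2 were not tested. BST2, which tethers virus particles to the surface, stood at 4.83 ± 1.0 CPM in S239D, 23.3 ± 2.9 CPM in S239A and 21.9 ± 2.4 CPM in WT (SD, n = 3). UBE2L6, which conjugates ISG15, had 1, 3 and 6 counts in S239D, 37, 41 and 56 in S239A, and 28, 19 and 30 in WT (-3.03 against WT, edgeR adjusted p = 5.46e-05). IFI6 had 1, 3 and 0 counts in S239D and at least 5 in every other library (edgeR adjusted p = 0.0111 against WT), and IFITM1 fell by 2.52, its family being one with shared reads. When WT replicate 2 was left out, IFI6 did not pass (edgeR adjusted p = 0.0509). Rises were those of DTX3L (1.31), PARP9 (0.66) and ISG15 (0.32), named after their values were seen. ISG15 did not pass when any of 5 of the 6 S239D and WT libraries was left out (edgeR adjusted p 0.0842 to 0.154).

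Of 8 tested class I-like genes and ligands of NK cells, 3 fell and 1 rose against WT in S239D (4 of 8, beside 41.4% of all tested genes). ULBP2 (-2.54, edgeR adjusted p = 0.00026) and MICB (-1.23, edgeR adjusted p = 0.00392) fell. Both are ligands of the NKG2D receptor with close relatives that can share reads. ULBP2 had few counts, at 4, 2 and 11 in S239D, 45, 30 and 37 in S239A, and 32, 24 and 35 in WT. It passed the filter on low counts only through the S239A and WT libraries, so the count of falls partly reflects the filter. The neonatal Fc receptor gene FCGRT, whose product also pairs with B2M, fell (-0.98, edgeR adjusted p = 0.000685), and MR1, which presents vitamin metabolites, rose (0.61, edgeR adjusted p = 0.00873), a call lost without WT replicate 1 or 3 (edgeR adjusted p = 0.0517 and 0.0575). Limma on log2(TPM + 1) did not call MR1 against WT (adjusted p = 0.0712). Against S239A, ULBP2 (-2.70), MICB (-1.64) and FCGRT (-0.96) fell.

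**Figure D5:**
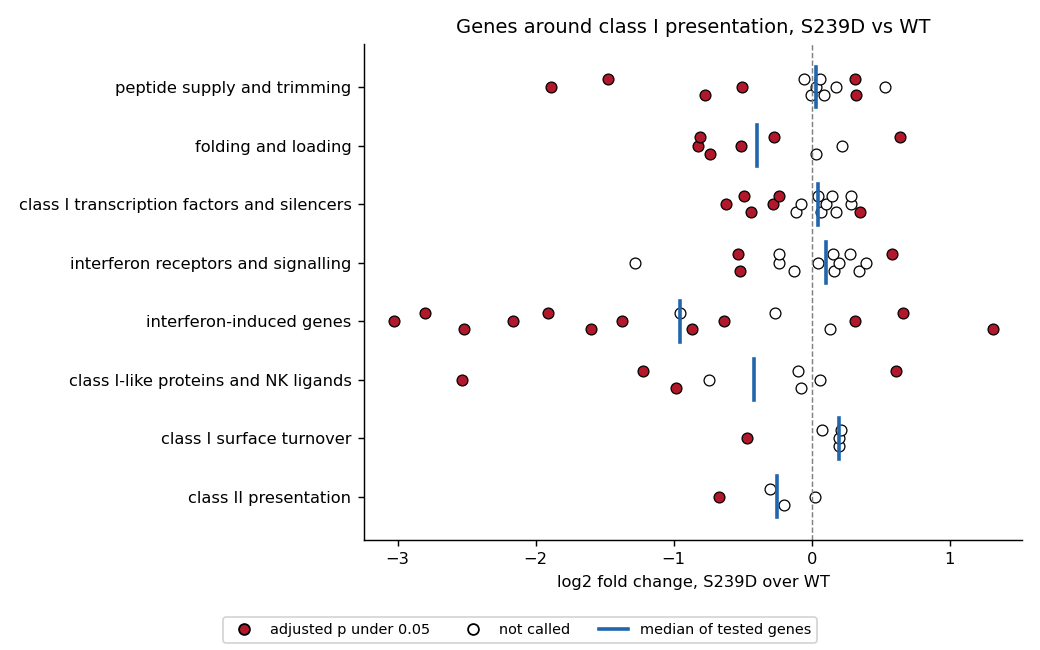
Log2 fold change in S239D over WT (x axis) of the tested genes in each of 8 lists (rows), where filled points passed at an adjusted p under 0.05 and the vertical bar is the median of the list. Interferon-induced genes have the lowest median (-0.95), and in each list with several called genes some lie on either side of 0.

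The mean profile of the 9 genes, each centred on its own mean log2 CPM over the 9 libraries, mixes genes that rose with genes that fell. Among 12073 other genes with a mean of at least 5 CPM, the 5 nearest to it by root mean square difference were CEP68 (0.034), TSPYL2 (0.059), GPR108 (0.063), MAPK14 (0.066) and GLTP (0.072). Their log2 fold changes in S239D against WT were -0.36 to -0.23.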

How the data were processed

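Libraries were made from poly-A RNA with random hexamer priming, per the labels' protocols. The authors deposited expected counts per gene and TPM, which is scaled within each library, and the submitters' processing notes name Trimmomatic 0.39 and RSEM. Aligner, build and annotation release are not given in the sources used here. Gene coordinates are the table's, and for 7 of the 9 genes they equal GENCODE 29 on GRCh38.

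Expected counts (3.81% not whole) were rounded, filtered with filterByExpr (minimum count 10), scaled by TMM and tested with edgeR 4.0.16 in R 4.3.3, with group means of all 9 libraries in 1 fit. CPM is normalised by TMM. P-values are two-sided. Alternatives were RLE scaling, DESeq2 1.42.0, limma 3.58.1 on log2(TPM + 1) and log2(TPM + 0.1) (kept at 1 TPM or more in 3 libraries), other filters, fits of the groups compared alone, the replicate number as a block, each library left out, and summed heavy chain counts. Added after seeing the data were the omission of replicate 2 from both variants at once and summing TAP2 with its readthrough gene.

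Deviations from the group means of same-numbered S239D and S239A libraries had correlations across genes of 0.1003, 0.2512 and 0.1027. Pairs with WT did not (all under 0.1).

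The members and lists were chosen with earlier results of these data known. Named genes are the 9 members, up to 4 called genes per list and comparison with the largest fold change, and the 5 nearest profiles.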

Additional observations from a re-analysis of the deposited data

How the results depend on the processing

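Count models changed little: with RLE scaling, DESeq2, either filter, fits of the groups compared alone and the replicate block, the counts of called members and of called genes around them stayed within 1.5 times those reported. With the replicate block, 7 members were called in S239D against WT and 7 against S239A, the same numbers as without it. The block changed no call of a member, and with it 44.9% and 46.9% of all tested genes were called. Limma on log2(TPM + 1) called 3 members in each S239D comparison, and 3 with a pseudocount of 0.1. Of all genes it tested, limma called 25.1% against WT and 27.1% against S239A (24.7% and 26.7% with 0.1). Of the genes around the members it called 22 against WT (23 with 0.1) and 25 against S239A (25 with 0.1). The cause was not tested. Without both replicate 2 libraries of the variants, 1 member and 6 of the genes around them were called in S239A against WT, where 0 were reported, and 874 of 16519 genes tested (5.29%) were called there, beside 1 of 16213 as reported. Leaving out each library in turn gave 5 to 7 members in S239D against WT, 6 to 7 against S239A and 0 in S239A against WT, and for the genes around them 28 to 42, 35 to 42 and 0. Of all genes tested in these fits, 32.2% to 45.5%, 35.5% to 43.4% and 0.00603% to 0.0484% were called.

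No called member changed direction under any alternative. Values that turned without a call, in S239A against WT, were HLA-B (-0.28 and -0.29 with the pseudocounts 1 and 0.1), HLA-F (-0.19 and -0.21) and NLRC5 (-0.18 and -0.42, and -0.0041 to 0.32 with each library left out, lowest without WT replicate 1). B2M turned in S239D against S239A (0.072 with both pseudocounts), and TAP1 in S239D against WT (-0.15 to 0.017 with each library left out, highest without S239D replicate 3). No scaling of counts moved the median of all genes by over 0.1. HLA-F, NLRC5, PSMB8, PSMB9, IFI6, GBP2 and ULBP2 had 50 counts or fewer in every library, which limits their precision.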

Other observations

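The lists of class II presentation and of class I surface turnover each gave 1 fall in S239D against WT, where 21.7% of all tested genes were lower. Of 12 class II genes 4 were tested, and IFI30, a thiol reductase of the class II pathway, fell (-0.67, edgeR adjusted p = 0.00123). CIITA, the class II counterpart of NLRC5, did not pass in any comparison (-0.30 in S239D against WT, edgeR adjusted p = 0.0753). HLA-DRA had 2 counts in S239D, 3 in S239A and 1 in WT, each summed over 3 libraries. Of 5 tested genes of surface turnover, the protease gene SPPL2A fell (-0.47, edgeR adjusted p = 0.00376), while limma on log2(TPM + 1) did not call it against WT (-0.19, adjusted p = 0.385) or S239A (adjusted p = 0.172). Against S239A, IFI30 (-0.78) and SPPL2A (-0.50) fell and SPPL3 rose (0.23), a call lost without any of 7 libraries.

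HLA-B varied more between WT libraries in the deposited TPM than in CPM. It was at 91.2, 55.4 and 79.9 TPM in WT, beside 50.4, 51.4 and 51.6 CPM in the same libraries, and at 20.3, 18.4 and 19.0 TPM in S239D.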
